A study of Macaca mulatta with 22 samples.

Results

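The mitochondrially encoded complex I mRNAs were examined in m6A-seq peak lists from 11 infant rhesus macaques (Macaca mulatta), with prefrontal cortex as the tissue. m6A-seq pulls down RNA fragments that carry N6-methyladenosine (m6A) with an antibody and lists the enriched stretches of each transcript as peaks. The members were the 6 mRNAs ND1, ND2, ND3, ND4, ND5 and ND6, found by taking every peak on the mitochondrial chromosome whose Ensembl gene is one of them. They held 87 of the 10069 peaks listed over all animals (0.864%), and they are 6 of the 3671 genes with a peak. The set was chosen by measured values, namely peaks in all or nearly all animals and a high rank by fold enrichment, so their recurrence and rank are given as a description and were not tested.

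The 5 sevoflurane animals were the females F, S2 and S3 and the males D and S1. They had breathed sevoflurane, a general anaesthetic, at roughly 2.5 to 3% in 3 sessions of 4 h, near postnatal days 7, 21 and 35. The 6 control animals were the females C, C1, C2 and C3 and the males A and B, and no procedure is given for them beyond the label control. Tissue of all animals is labelled postnatal day 35. The question of the comparison is whether m6A peaks of these mRNAs differ after repeated exposure.

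Complex I, or NADH dehydrogenase, passes electrons from NADH to ubiquinone and pumps protons across the inner mitochondrial membrane. Its core membrane subunits are made inside the mitochondrion from mRNAs of the mitochondrial genome, while its other subunits are made from nuclear genes and imported. In mammals the mitochondrial genome is transcribed as long precursors from both strands, and ND6 is the only one of these mRNAs that comes from the strand opposite to the rest. Neurons of the cortex depend heavily on this respiratory chain for ATP.

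The peak lists held 1217 ± 295 peaks in sevoflurane animals (SD, n = 5, range 852 to 1673) and 664 ± 282 in control animals (SD, n = 6, range 452 to 1210). The members had 8.40 ± 1.34 peaks per sevoflurane animal and 7.50 ± 1.05 per control animal (SD), or 0.731% and 1.24% of a list on average. The median fold enrichment over a whole list averaged 5.82 ± 0.505 in sevoflurane animals and 6.75 ± 0.909 in control animals (SD, n = 5 and 6). The lists hold no read counts, which leaves the depth behind each value unknown. Input libraries were not analysed here and RNA levels were not compared, and fewer mitochondria, fewer cells of a type or less RNA per cell cannot be told apart in bulk tissue. As a check of the tissue label, peaks fell in 4 of 7 general neuron markers: NEFM in 11 animals, RBFOX3 in 7, SYT1 in 2 and NEFL in 1. Peaks also fell in 1 of 3 excitatory neuron markers (CAMK2A, 4 animals) and 1 of 3 inhibitory ones (SLC32A1, 5 animals). They fell in 1 of 5 astrocyte, 1 of 4 oligodendrocyte, 1 of 4 microglia and 0 of 3 endothelial markers, each in 1 animal at most, and a gene with no peak may still be expressed.

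On the rheMac8 mitochondrial chromosome (M), the 5 genes on the plus strand are ND1 at positions 3259 to 4213, ND2 at 4421 to 5462, ND3 at 10050 to 10395, ND4 at 10751 to 12128 and ND5 at 12328 to 14139. ND6 lies on the minus strand at 14140 to 14667, so that ND5 and ND6 meet end to end at their 3′ ends. All 87 peaks were listed as single blocks, with no gap inside a peak. The mitochondrial chromosome held 11 minus-strand peaks, and 11 of them belonged to ND6. Peaks are listed by gene, and ND6 was the only minus-strand gene among the 13 mitochondrial genes with a peak. That count therefore follows from the gene annotation and does not show on which strand reads lay elsewhere. The library kit is stranded per the labels, but strands of reads were not examined here. How reads shared with nuclear copies of mitochondrial sequence were handled was not stated in the material used here.

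**Figure D1:**
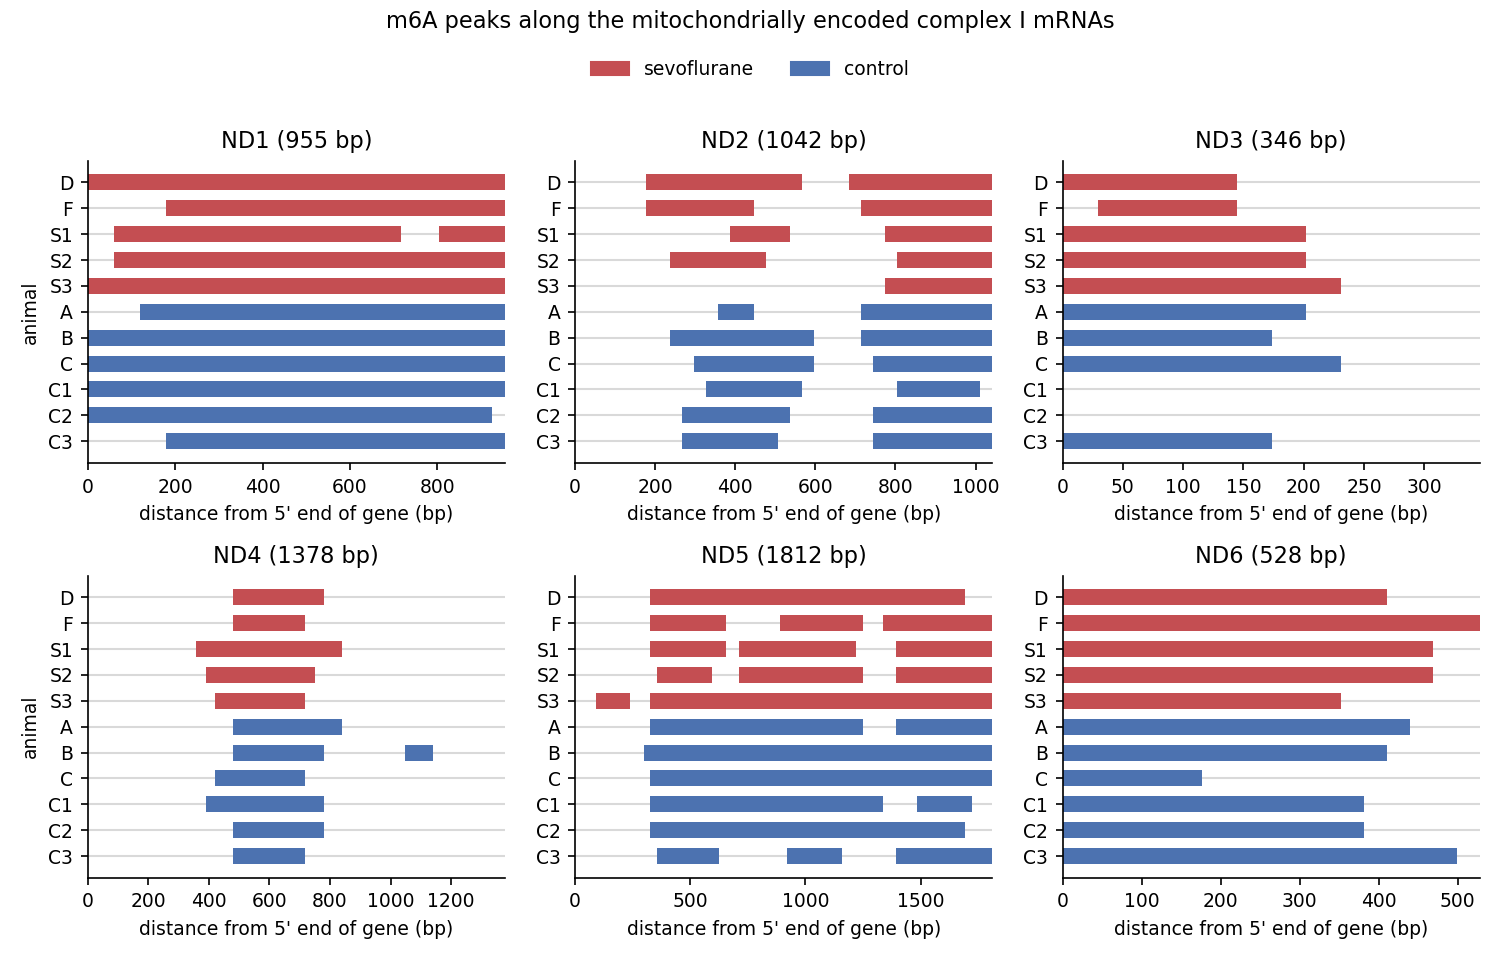
Peaks of the 6 mRNAs in each animal, drawn as bars along the gene, with distance from the gene's 5′ end in bp on the horizontal axis and the 5 sevoflurane animals above the 6 control animals. ND1 is covered nearly whole, ND2 by a pair of separate peaks in 10 animals, ND4 by a central peak in 11, and ND6 from its 5′ end in 11; ND3 has no peak in control animals C1 and C2.

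Within each gene, all animals with a peak shared a covered stretch, while peak edges and the number of peaks varied between animals. Which part of the gene was covered differed from gene to gene. ND1 and ND6 were covered over most of their length, ND4 over a short central stretch only, ND3 over its 5′ part, ND2 in 2 separate places and ND5 in up to 3. The median share of the gene under peaks over the 11 animals was 96.9% for ND1, 77.8% for ND6, 73.8% for ND5, 51.5% for ND2 and 21.8% for ND4, and 50.3% for ND3 with its 2 bare animals counted. The other mitochondrial mRNAs spanned a similar range, with COX2 at 95.6%, CYTB at 71.8%, COX3 at 63.0%, COX1 at 32.2% and ATP6 at 26.3%. Peaks of the 6 mRNAs had a median length of 328 bp (range 90 to 1515), against 297 bp for other mitochondrial mRNAs and 150 bp for nuclear genes.

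These positions have a fixed resolution. All 174 peak boundaries of the 6 mRNAs fell, within 2 bp, on an even grid laid over each gene, with steps of 28.8 bp in ND3 to 29.96 bp in ND4. A boundary shared between animals is therefore shared only to within about 1 such step. The grid starts at the end of the gene, and no peak of the 6 mRNAs ran past a gene end. Whether peaks that reach a gene end were cut there is not known, so such an end need not be where enrichment stops. A peak marks where immunoprecipitated fragments piled up and does not place a methylated base within it.

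ND1 encodes the membrane subunit next to the ubiquinone-binding site. Its gene (ENSMMUG00000028699, 955 bp) had 12 peaks, 1 in each of 10 animals and 2 in the sevoflurane male S1. Bases 180 to 716 and 806 to 925, counted from the 5′ end, lay under a peak in 11 of 11 animals (positions 3438 to 3974 and 4064 to 4183). The gap between these stretches came from S1 alone, whose first peak ended at base 716 and whose second began at base 806. Peaks ran to the 3′ end of ND1 in 10 of 11 animals and to the 5′ end in 6, of which 2 were sevoflurane and 4 control animals.

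The strongest ND1 peak had a fold enrichment of 128 in D, 320 in F, 80.7 in S1, 140 in S2 and 52.6 in S3 among the sevoflurane animals. In the 6 control animals it ran from 25.4 in C1 through a median of 60.9 to 196 in B. The sevoflurane animals D, F, S1 and S2 stood above every control other than B, while S3 lay inside the control range, so the groups overlapped.

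ND2, ND4 and ND5 encode the antiporter-like subunits of the membrane arm, which carry proton channels. ND2 (ENSMMUG00000028695, 1042 bp) was the mRNA with the plainest pair of peaks: 21 peaks lay in 2 regions, an upstream one at positions 4599 to 5016 in 10 animals and a downstream one at 5105 to 5462 in 11. Between them 88 bases were bare in every animal, as were the first 178 bases of the gene. The stretch from base 804 to 1012 was covered in all 11 animals (positions 5224 to 5432), and the downstream peak reached the 3′ end of the gene in 10 of them. In all 6 controls, bases 358 to 447 were also covered, but the sevoflurane female S3 had no upstream peak.

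The downstream ND2 peak was the stronger one in 9 of the 10 animals with both peaks. The downstream peak had folds of 167 in D, 300 in F, 255 in S1 and 76.7 in S2, and 83.9 in S3, where it stood alone. The upstream peak had 39.6 in D, 157 in F, 35.9 in S1 and 34.1 in S2. In controls the downstream folds were 330 in A, 576 in B, 237 in C, 6.94 in C1, 96.5 in C2 and 161 in C3, and the upstream folds were 35.0 in A, 91.9 in B, 71.9 in C, 10.2 in C1, 12.0 in C2 and 28.7 in C3. The control C1 was the exception, with a downstream to upstream ratio of 0.680. Over the 10 animals that ratio had a median of 4.91 and a highest value of 9.43, in control A. The downstream peak also had the lower p-value in 9 of the 10, again with C1 as the exception. These peaks share a gene, a library and a list, and no test of the ratio was made.

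**Figure D2:**
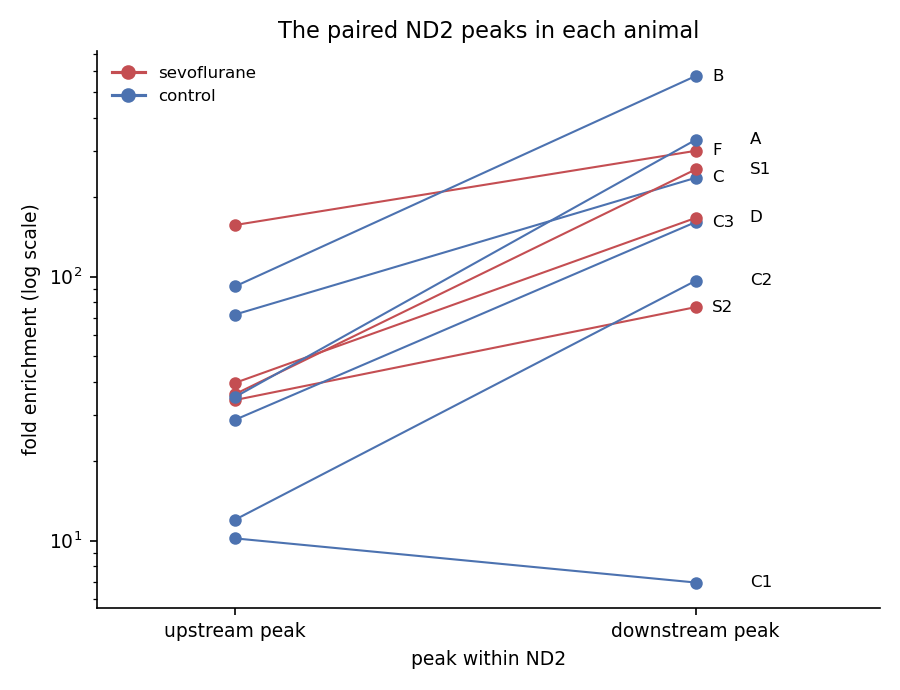
Fold enrichment on a log axis of the upstream and downstream peaks of ND2, joined by a line for each of the 10 animals with both (4 sevoflurane, 6 control). The line rises to the downstream peak in 9 of 10 animals and falls in control C1, which had 10.2 upstream and 6.94 downstream.

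ND4 (ENSMMUG00000028677, 1378 bp) was covered least of the 6 for its length. A central stretch of 240 bases, from base 480 to 719 (positions 11230 to 11469), lay under a peak in all 11 animals and is 17.4% of the gene. The first 359 and the last 239 bases were bare in every animal. The only ND4 peak elsewhere was in control B at positions 11799 to 11889, with a fold of 31.8.

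The strongest ND4 peak had folds of 57.2 in D, 65.8 in F, 55.1 in S1, 23.4 in S2 and 38.4 in S3. In controls it ran from 25.5 in C3 through a median of 59.9 to 1570 in B, and the next highest control was C at 95.8. Apart from B, sevoflurane and control animals overlapped over most of their range. The fold of 1570 was the highest of all peaks in B's list.

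ND5 (ENSMMUG00000028673), at 1812 bp the longest of the 6 genes, had the most peaks, 22. It had 3 stretches covered in every animal, at bases 357 to 595, 921 to 1159 and 1485 to 1693 (positions 12684 to 12922, 13248 to 13486 and 13812 to 14020). In 5 animals (D and S3 of the sevoflurane animals, B, C and C2 of the controls) a single peak of 1366 to 1515 bp ran over all 3. In 4 animals (F, S1 and S2 of the sevoflurane animals, C3 of the controls) each stretch had its own peak, and controls A and C1 had 2 peaks. S3 had the only peak near the 5′ end, at positions 12417 to 12566, with a fold of 28.0.

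In the 4 animals with 3 separate ND5 peaks, the fold and the p-value ordered the pieces differently. The middle piece had folds of 74.9 in F, 80.7 in S1, 85.2 in S2 and 48.3 in control C3. It was the piece of highest fold in 3 of these 4 animals, all but S2, where the last piece reached 115. The middle piece had the weakest p-value of the 3 in 4 of 4, with log10 p-values of -27.9 in F, -28.9 in S1, -19.0 in S2 and -11.8 in control C3.

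The strongest ND5 peak had folds of 63.2 in D, 74.9 in F, 80.7 in S1, 115 in S2 and 573 in S3. In controls it ran from 19.2 in C1 through a median of 68.9 to 1430 in B. S3 and B stood far above the rest of their own groups. Both had 1 long peak over the ND5 stretch, but so did D at a fold of 63.2, C at 269 and C2 at 48.2.

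ND3 and ND6 encode small subunits of the membrane arm, near the ubiquinone site. ND3 (ENSMMUG00000028680, 346 bp) had the lowest median fold of the 6 and was the only one without a peak in every animal. It had 1 peak in 5 of 5 sevoflurane animals and in 4 of 6 control animals, and controls C1 and C2 had none. C1 and C2 have lists of 452 and 703 peaks. The controls with an ND3 peak have lists of 601 (A), 535 (B), 483 (C) and 1210 (C3), and the sevoflurane animals have lists of 852 to 1673. Whether list length bears on the ND3 peak was not tested. Where it was found, the peak covered bases 30 to 145 (positions 10079 to 10194) in 9 of 9 animals and began at the 5′ end of the gene in 8 of them. The last 115 bases were never covered.

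The ND3 peak had folds of 30.8 in D, 13.6 in F, 6.19 in S1, 8.74 in S2 and 57.7 in S3. In the controls with a peak it had 7.07 in A, 67.2 in B, 40.1 in C and 19.6 in C3. Both groups held low and high values, and S1, the lowest, was close to the median fold of 5.98 over its whole list.

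ND6 (ENSMMUG00000028672, 528 bp), from the opposite strand, had exactly 1 peak in each of the 11 animals. The peak began at the 5′ end of the gene in 11 of 11, and bases 1 to 177 (positions 14491 to 14667) were covered in all. In all 5 sevoflurane animals coverage ran on to base 352. Among controls, C stopped at base 177, with 33.5% of the gene covered, and the other 5 controls had 72.3 to 94.5%. Only the sevoflurane female F had a peak over the whole gene, up to the junction with ND5.

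The ND6 peak had folds of 72.8 in D, 163 in F, 172 in S1, 145 in S2 and 164 in S3. In controls it ran from 11.7 in C1 through a median of 129 to 499 in B. The sevoflurane animals other than D were close together, and the controls lay on both sides of them.

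**Figure D3:**
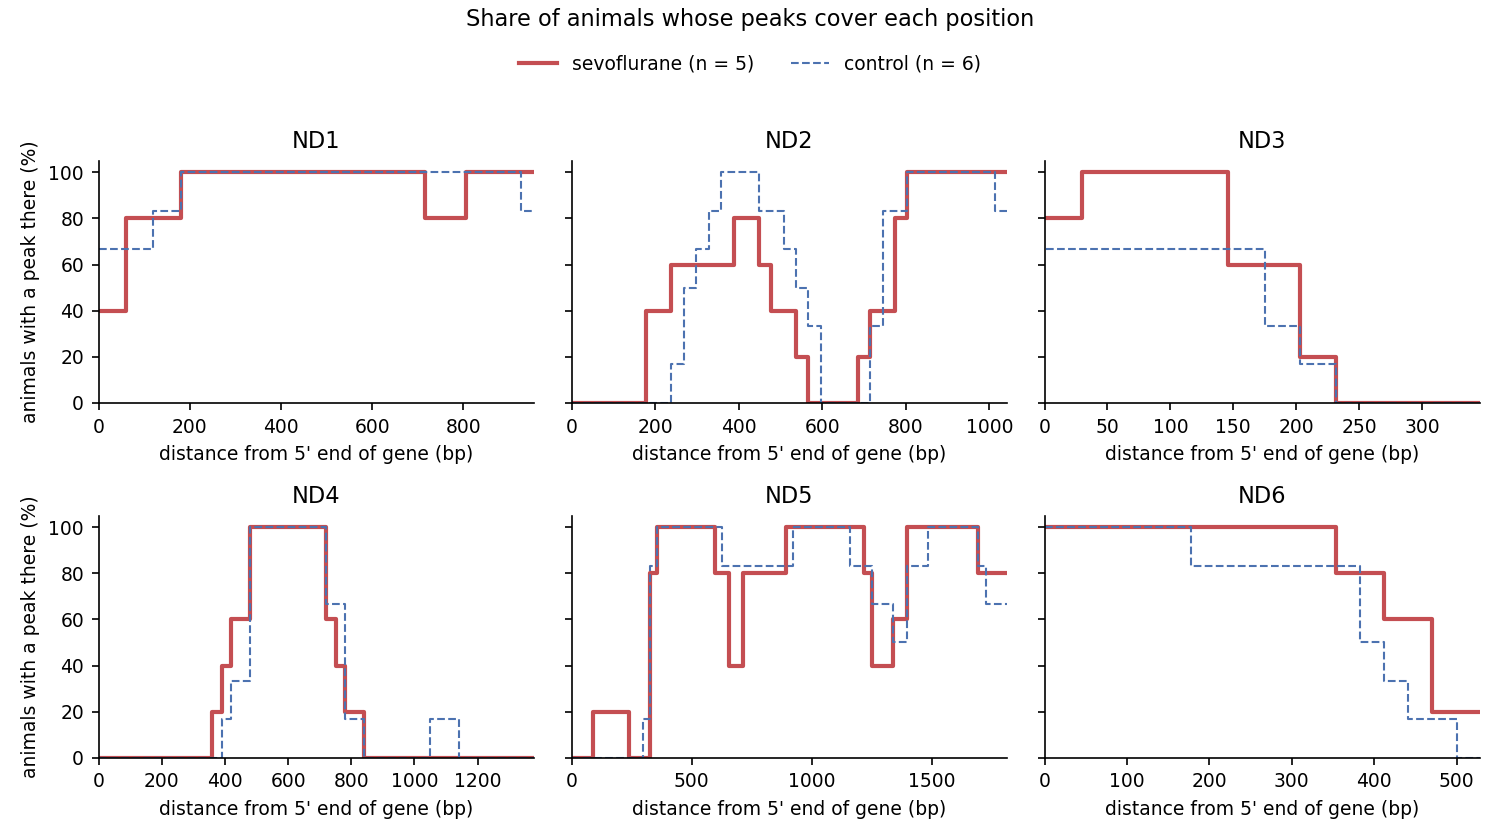
Percentage of sevoflurane animals (solid, n = 5) and of control animals (dashed, n = 6) whose peaks cover each position, by distance from the 5′ end of each gene in bp. Both lines are at 100% over most of ND1 and over ND4 from base 480 up to base 720. They part at peak edges and gaps, such as from base 655 of ND5 (2 of 5 sevoflurane and 5 of 6 control animals) and from base 441 of ND6 (3 of 5 and 1 of 6), and over bases 30 to 145 of ND3 (5 of 5 and 4 of 6).

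Within the lists these mRNAs stood near the top. A percentile was given to each peak by ranking the fold enrichment within its own list, where 100 is the top. The median percentile of the strongest peak over animals was 99.6 for ND6 and for ND2, 98.7 for ND5, 98.1 for ND1, 97.2 for ND4 and 85.0 for ND3 over its 9 animals. The ranges of neighbouring genes in this order overlapped. The other mitochondrial mRNAs had medians of 99.2 for COX1, 98.7 for COX2, 97.0 for CYTB, 96.8 for COX3 and 86.0 for ATP6. A member had the highest fold of the list in 7 of 11 lists, and a mitochondrial mRNA in 9.

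Ranked by p-value instead, the median percentile was 99.8 for ND1, 99.7 for ND6, 99.2 for ND5, 99.0 for ND4, 97.3 for ND2 and 92.8 for ND3 over its 9 animals. That is above the median by fold for each of them except ND2. The authors' false discovery rate was listed at zero (minus infinity on the log10 scale) for 85 peaks of the series, of which 66 were mitochondrial and 36 belonged to these 6 mRNAs. In control C1, the ND6 peak had a fold of only 11.7, at rank 122 of its 452 peaks, but rank 6 by p-value. The ND2 peaks of most animals had a high fold with a moderate p-value, such as a fold of 167 and a log10 p-value of -38.0 in D.

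No difference between sevoflurane and control animals passed the adjusted test for any of the 6 mRNAs, in fold, in percentile or in number of peaks. Presence could be tested for ND3 only, since the others had a peak in every animal, and it did not pass either. Presence was compared with Fisher's exact test and the other measures with a two-sided exact permutation test over the animals, run for every gene of the series with enough animals and adjusted over all of them (Benjamini-Hochberg). The smallest p that all 462 assignments of 5 and 6 animals can give is 0.00216. The fold and the percentile were tested in 331 genes, those with a peak in at least 3 animals of each group, and all 6 mRNAs passed this filter.

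On the log2 scale of the fold enrichment, ND1 averaged 6.90 ± 0.98 in sevoflurane animals and 5.94 ± 1.01 in control animals (SD, n = 5 and 6). The difference was 0.96, or 1.95-fold, with a 95% interval of -0.43 to 2.31 by the exact permutation test (p = 0.147, adjusted p = 0.697). ND4 averaged 5.49 ± 0.60 in sevoflurane animals and 6.45 ± 2.16 in control animals, a difference of -0.95 (interval -3.30 to 0.87). Without control B the ND4 difference was -0.12. Leaving out each animal in turn, the ND1 difference ran from 0.60 without the sevoflurane animal F to 1.29 without control B. Its unadjusted exact permutation p without B was 0.0317, the lowest of the 22 alternatives run for ND1 on this scale, and no gene passed adjustment. ND3 differed by -0.56 over the 9 animals with a peak (interval -2.76 to 1.71).

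The remaining 3 mRNAs had group means close to each other, with wide intervals on the log2 scale: ND6 differed by 0.19 (-1.60 to 2.34), ND5 by 0.16 (-2.32 to 2.65) and ND2 by 0.14 (-1.86 to 2.46). The ND5 interval holds 4-fold differences in either direction, so neither a change of that size nor the lack of one is shown. In this comparison 0 of the 6 mRNAs had an unadjusted p under 0.05, against 4.23% of the 331 genes (3.93% higher and 0.302% lower after sevoflurane), and 0 genes passed adjustment. The median difference was 0.15 over the 6 mRNAs and 0.23 over all genes tested.

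**Figure D4:**
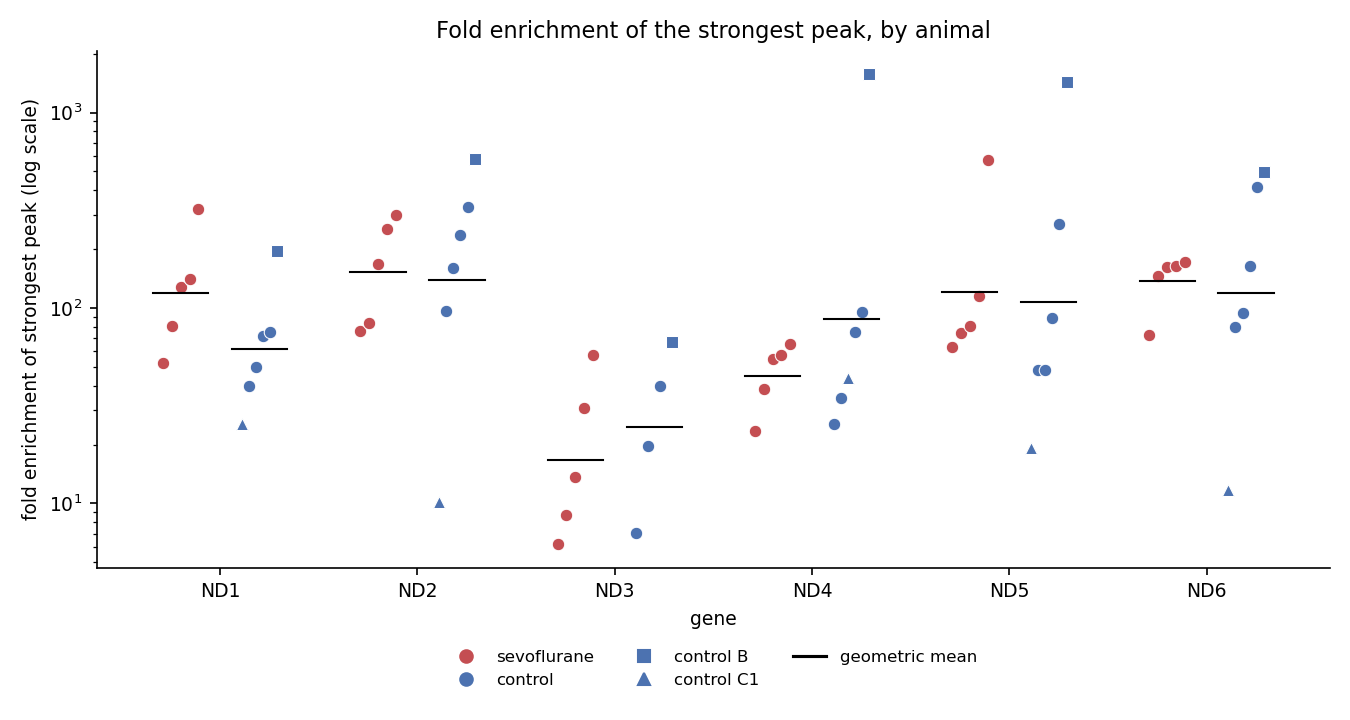
Fold enrichment of the strongest peak of each mRNA on a log axis, 1 point per animal, sevoflurane left of control, with the geometric mean of each group as a line. Control B (square) is the highest control for all 6 genes, up to 1570 at ND4, and control C1 (triangle) is the lowest for ND1, ND2, ND5 and ND6, down to 10.2 at ND2.

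Control animals B and C1 lay at opposite ends of the control group. B had the highest control fold at 6 of 6 mRNAs, and C1 the lowest at 4 of the 5 it had a peak in. B's list has a median fold of 7.07 over all its peaks and C1's one of 5.78, both inside the range of the other lists. Without B and C1, an alternative added after seeing the data, the difference for ND2 became -0.29 and that for ND6 -0.13 on the log2 scale, and no adjusted p was under 0.05. What sets B and C1 apart was not tested.

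The percentile within the list gave a similar picture. ND1 averaged a percentile of 98.9 ± 1.49 in sevoflurane animals and 96.0 ± 3.22 in control animals (SD, n = 5 and 6), a difference of 3.00 points (exact permutation p = 0.0476, adjusted p = 0.461). This unadjusted value is read against a background in which 9.37% of the 331 genes had a p under 0.05, and 0 passed adjustment. By direction, 9.06% were higher after sevoflurane and 0.302% lower, and the median difference over all genes was 7.43 points. A rise of 7.43 points was not possible for ND1, since its control mean of 96.0 lies near the top of the scale. Lists were longer in the sevoflurane animals, and with all lists reduced to the 452 peaks of lowest p-value the ND1 difference was 2.48 points (exact permutation p = 0.275). Without control C1 it was 1.72 points (exact permutation p = 0.0714). With peaks ranked by p-value instead, the ND1 difference was -0.0228 points (exact permutation p = 0.894) and that of ND4 0.916 (exact permutation p = 0.0455, adjusted p = 0.32), where 15.1% of the 331 genes had a p under 0.05.

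The percentile differences of the other 5 mRNAs were 4.92 points for ND2, 4.61 for ND6, 2.94 for ND5, -1.32 for ND4 and -4.67 for ND3. The control means of ND2, ND4, ND5 and ND6 were 94.5 to 96.1, near the top of the scale. A rise as large as the median over all genes was therefore not possible for them. Control C1 had the lowest percentile of ND1, ND2, ND5 and ND6, at 89.6, 68.6, 83.1 and 73.0. Without C1 the ND2 difference was -0.252 points, that of ND5 0.342 and that of ND6 0.227. For 0 of the 6 mRNAs did the groups stand apart without overlap, against 5.44% of the genes for the percentile and 3.63% for the log2 fold.

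**Figure D5:**
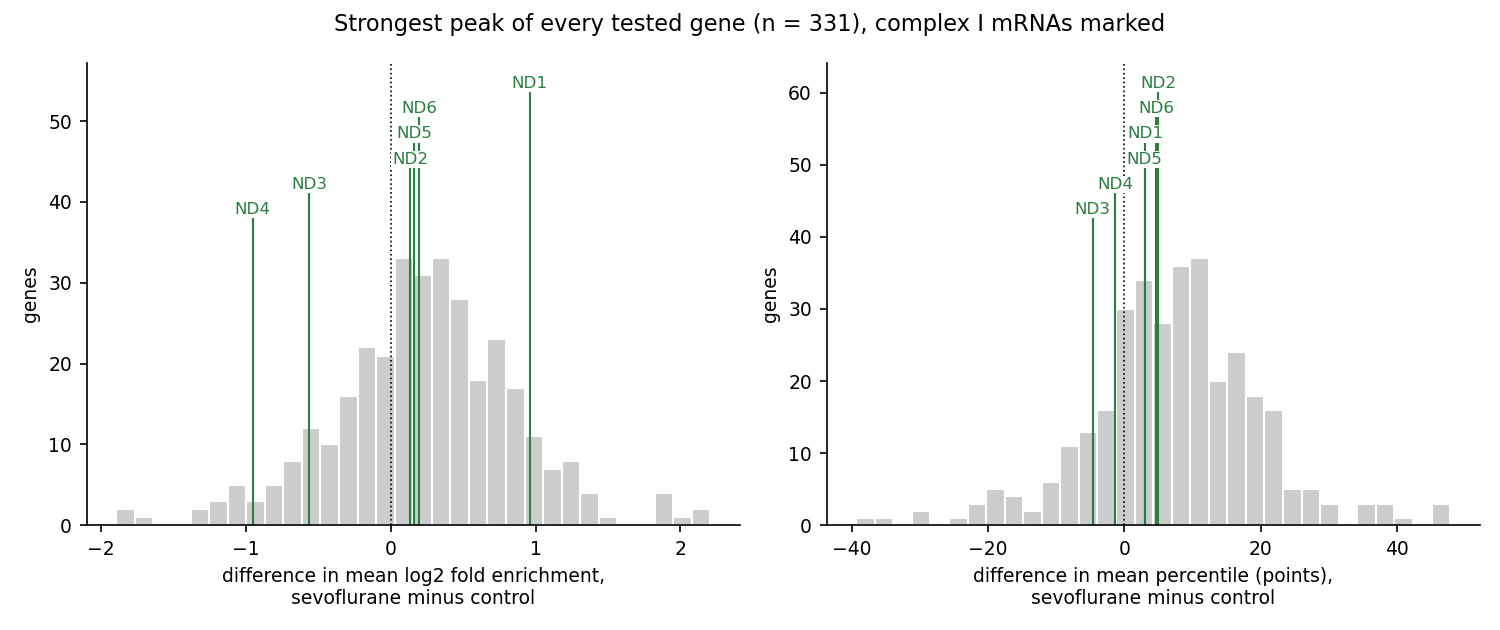
Number of genes by difference in mean log2 fold enrichment (left) and in mean percentile (right) of the strongest peak, sevoflurane minus control, for the 331 genes tested, with the 6 complex I mRNAs marked by lines. The mRNAs lie inside both distributions, from -0.95 for ND4 to 0.96 for ND1 on the log2 scale and from -4.67 for ND3 to 4.92 for ND2 in percentile points. For the mRNAs other than ND3, control means of 94.5 to 96.1 lie near the top of the percentile scale. Rises as large as those of many other genes were therefore not possible for them in the right panel.

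The largest difference between the groups in mean number of peaks per gene was 0.733, at ND5. ND5 had 2.40 ± 0.894 peaks in sevoflurane animals and 1.67 ± 0.816 in control animals (SD, n = 5 and 6; exact permutation p = 0.316, adjusted p = 0.831 over 1618 genes). With 3 of 5 sevoflurane and 1 of 6 control animals in 3 pieces, the covered share of ND5 was close in both groups, at 72.9 ± 10.6% and 72.5 ± 11.8%. On average ND1 had 1.2 peaks in sevoflurane and 1 in control animals, ND2 had 1.8 and 2, ND3 had 1 and 0.667, ND4 had 1 and 1.17, and ND6 had 1 and 1. None of the 6 had an unadjusted p under 0.05, against 2.6% of the 1618 genes. Presence of an ND3 peak, in 5 of 5 sevoflurane and 4 of 6 control animals, gave p = 0.455 by Fisher's exact test (adjusted p = 0.901), where 1.82% of the 1486 genes tested had a p under 0.05.

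The comparison was also made by sex, with 2 sevoflurane and 2 control males, a two-sided comparison that cannot reach a p below 0.333, and 3 sevoflurane and 4 control females. Among females the log2 difference was 1.61 for ND1, 1.53 for ND5, 1.35 for ND6, 0.67 for ND2 and -0.46 for ND4. Among males it was -0.26 for ND1, -2.32 for ND5, -2.02 for ND6, -1.08 for ND2 and -2.06 for ND4. Control B is 1 of the 2 control males and C1 1 of the 4 control females. The difference in females minus that in males was 3.37 for ND6 (permutation p = 0.0467 over 150 relabellings, adjusted p = 0.378) and 3.86 for ND5 (permutation p = 0.1, adjusted p = 0.579), against a background in which 12.3% of the 81 genes tested had a p under 0.05. For the percentile 0 of 5 mRNAs had such a p under 0.05, against 2.47% of 81 genes, and for the number of peaks 0 of 6, against 0.556% of 1618 genes.

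The labels name some animals by a letter alone and others by a letter and a number, without saying what this marks. ND1 was the only one of the 5 mRNAs found in all animals with a positive log2 difference in both, of 0.99 in single-letter animals (2 against 3, exact permutation p = 0.300) and 1.19 in numbered animals (3 against 3, exact permutation p = 0.1, the smallest such groups allow). With animals reassigned only within naming style, the ND1 difference was 1.10 on the log2 scale (exact permutation p = 0.035, adjusted p = 0.758) and 3.22 percentile points (exact permutation p = 0.03, adjusted p = 0.536). In those tests 2.42% and 5.14% of the 331 genes had a p under 0.05. ND5 and ND6 differed in sign, with -2.24 and -1.22 in single-letter animals and 2.30 and 1.5 in numbered ones. ND2 likewise had -0.67 and 1.12, and ND4 had -1.50 and -0.26.

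Of the 37 nuclear complex I subunit genes, whose proteins assemble with those of these mRNAs, 5 had a peak, each in 1 animal: NDUFA8, NDUFS3 and NDUFV3 in a sevoflurane animal and NDUFA11 and NDUFS1 in a control animal. NDUFS1 and NDUFS3 are core subunits of the arm that takes electrons from NADH, and their peaks stood at percentiles of 18.3 and 9.99. Of 18 complex I assembly factors only ACAD9 had a peak, in 1 control animal. The list for mitochondrial RNA metabolism held 36 symbols, with PRORP and TBRG4 also entered under the names MRPP3 and FASTKD4. Of its genes 4 had a peak. GRSF1, an RNA granule protein, had one in 1 sevoflurane and 1 control animal. MTPAP, the mitochondrial poly(A) polymerase, PRORP, the nuclease that frees tRNA 5′ ends, and TBRG4, a FASTK-family protein, each had one in 1 sevoflurane animal. Of the 3671 genes of the series with a peak, 55.9% likewise had one in 1 animal only. Too few of the listed genes had a peak for a test between the groups.

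Of 7 other mitochondrial mRNAs 5 had a peak: COX1, COX2, COX3 and CYTB in all 11 animals and ATP6 in 9, with 79 peaks together. ND4L, the remaining mitochondrially encoded complex I mRNA, and ATP8 had no listed peak. A further 2 mitochondrial genes had peaks, but the tables give them no symbol: ENSMMUG00000028701 in 10 animals, with a median percentile of 68.2, and ENSMMUG00000028703 in 5, with one of 72.5.

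Across the 11 animals, the mean log2 fold of the 5 mRNAs with a peak in every animal moved most closely with that of CYTB, the mitochondrial cytochrome b mRNA, with a Spearman correlation of 0.90 among 76 genes. The other mitochondrial mRNAs found in every animal were lower, with COX3 at 0.64, COX2 at 0.62 and COX1 at 0.41. The nuclear genes most like the mean of the 5 mRNAs were LZTS3 at 0.77, RHOBTB2 at 0.66 and RNF112 at 0.65. Between pairs of the 5 mRNAs the correlation ran from -0.07 for ND4 and ND6 to 0.65 for ND2 and ND6. All these values come from the same 11 libraries, whose depth is unknown, and are given as a description.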

How the data were processed

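Total RNA was fragmented and immunoprecipitated with an m6A antibody per the labels' protocols, and 1 annotated peak list per animal was used; the 11 input samples were not analysed here. Of tools, HISAT2 2.1.0, StringTie, cutadapt and Trim Galore 0.5.0 are named in the submitters' processing notes, with the build rheMac8. For the peak caller and its background, the sources used here give no name. Per the file headers, the authors gave each peak a fold enrichment (a ratio), a p-value, and negative scores holding the log10 of the p-value and of the false discovery rate. In the deposited lists every p-value was at most 0.001 and every fold at least 2.06. Starts count from 0 in the files, so 1 was added. Depth is unknown, so precision rests on the number of animals.

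Each gene was represented by its strongest peak, as log2 of the fold and as a percentile of its list. Groups followed the treatment labels, and each label names a separate animal. Tests were two-sided exact permutation tests gene by gene (Python 3.11.15, numpy 2.4.6, scipy 1.17.1), or Fisher's exact test for presence in 2 to 9 animals, with Benjamini-Hochberg adjustment over all genes tested, and were tested on simulated data. Intervals of 95% are the shifts not rejected. Named genes are the 6 mRNAs, every other mitochondrial gene with a peak, up to 4 genes per pathway list by number of animals and then symbol (the fifth complex I subunit was added after its values were seen), and the 3 nuclear genes most like the mRNAs over the animals. The members and the lists were chosen with earlier results of these data known. No sequence is shown, since no genome was used here.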

Additional observations from a re-analysis of the deposited data

Results flagged for a closer look

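Within groups of 4 to 6 animals, 13 of 42 groups of member values held an animal that stood apart from its group by Dixon's test. Chance sets apart about 1 in 20 groups of normally distributed values. That rate was not checked for these values: 3 of the 13 are peak numbers in which the other animals are tied, and 8 of the 13 come from control B or C1, so the count is a description. Among sevoflurane animals, S3 had a fold of 573 at ND5 (next 115) and 1 ND2 peak where the others had 2. S1 had 2 ND1 peaks where the others had 1, and D had a fold of 72.8 at ND6 (next 145).

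Control B stood apart upward in fold, with 196 at ND1 (next control 75.8), 1570 at ND4 (next 95.8) and 1430 at ND5 (next 269), and had 2 ND4 peaks where the other controls had 1. Control C1 stood apart downward in percentile, with 89.6 at ND1, 68.6 at ND2, 83.1 at ND5 and 73.0 at ND6, where the next lowest controls had 96.0, 99.3, 97.9 and 97.6. Control C had 33.5% of ND6 covered, where the next lowest control had 72.3%.

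The difference between sevoflurane and control animals at ND6 differed between the sexes by 3.37 on the log2 scale (females minus males, permutation p = 0.0467, adjusted p = 0.378), 1 of 16 such tests on the 6 mRNAs. For this measure 12.3% of the 81 genes tested had an unadjusted p under 0.05, and 0 passed adjustment.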

How the results depend on the processing

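No gene passed adjustment in any comparison under any alternative run. Counts at an unadjusted p under 0.05 moved. For the percentile (31 genes) they were 18 with peaks of p-value at most 1e-05, 6 with lists of equal length, 3 in females, 17 within naming style, 50 ranked by log10 p-value, 12 over genes found in all animals, and 9 to 36 leaving out each animal. For the log2 fold (14 genes) they were 6 in females, 8 within naming style, 4 over genes found in all animals, 36 with each list centred on its median (chosen after seeing the data), and 7 to 21 leaving out each animal. For the number of peaks (42 genes) they were 14 with the stricter p-value, 4 with equal lists and 37 to 103 leaving out each animal. For presence (27 genes) they were 10 and 4. Joined by 50% reciprocal overlap, the 9 regions of the members became 17, and the 5 found in all animals became 3.

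Same-numbered animals (S1 and C1, S2 and C2, S3 and C3) had correlations of deviations of 0.0953, 0.0634 and 0.0279 over 81 genes. Each value comes from a single pair of animals and was not set against other pairs, so it cannot decide what the numbers mark. With the number as a replicate block, 15 genes for the percentile and 8 for the log2 fold had an unadjusted p under 0.05, and ND3 differed by 4.90 points and by 0.19 on the log2 scale.

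Of 266 recomputed percentile and log2 differences of the 6 mRNAs, 244 kept their direction and 22 turned it; of 114 differences in peak number, 89 kept it and 25 had none, being 0 in one or both settings. In percentile points, ranking by log10 p-value gave -0.0228 for ND1 and 0.916 for ND4, and leaving out B and C1 gave -0.279 for ND2, 0.832 for ND3 and 0.278 for ND4. Leaving out 1 animal gave -0.252 (C1) to 6.02 for ND2, -15.5 to 1.02 for ND3 (S1, and 0.832 without B) and -3.07 to 0.792 (S2) for ND4. On the log2 scale, leaving out B and C1 gave -0.29 for ND2 and -0.13 for ND6, and the mean over a gene's peaks gave -0.46 for ND5. Leaving out 1 animal gave -0.62 to 0.55 for ND2 (below 0 without F, S1 or C1), -0.40 to 0.91 for ND5 (below 0 without S3, C1, C2 or C3) and -0.48 to 0.61 for ND6 (below 0 without C1). The cause of these moves was not tested.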
